A study of Mus musculus with 10 samples.

Results

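The myeloid C-type lectin receptors described here are 7 genes taken by name, Clec4a2, Clec4d, Clec4e, Clec4n, Clec5a, Clec7a and Clec12a, and followed across the 5 groups of the series. Each gene was represented by 1 principal coding transcript of the GENCODE M21 annotation, and the 7 were among 26227 genes for which a transcript was chosen. All 7 were among the 13004 genes tested, which had an RPKM (reads scaled to transcript length and to the reads of the library) of at least 1 in at least 2 libraries. Clec4d, Clec4e, Clec5a and Clec12a reached that value in 10 of 10 libraries. Clec4a2, Clec4n and Clec7a reached it in 4 libraries, those of the 72 h and 120 h groups, so these genes passed through the groups where they were high.

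C-type lectin receptors are membrane proteins of phagocytes whose extracellular domain recognises sugars and lipids of fungi and bacteria, or ligands of damaged cells. Activating members carry, or pair with an adaptor that carries, an immunoreceptor tyrosine-based activation motif that recruits the kinase Syk, and the signal runs through the adaptor Card9 to NF-kB and to cytokine genes. Inhibitory members carry an inhibitory version of the motif that recruits the phosphatases encoded by Ptpn6 and Ptpn11. Such receptors are known as surface proteins of monocytes, macrophages, dendritic cells and neutrophils.

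The RNA came from ER-Hoxa9-Lys-GFP cells, a cultured line from C57BL/6 mice, grown in every group with serum and stem cell factor. As background, lines of this kind depend on a fusion of Hoxa9 with an estrogen receptor domain: with estradiol (E2) the fusion works and the cells remain progenitors, without it they mature, and Lys-GFP names a green fluorescent reporter in a lysozyme gene. Untreated cells kept E2. In the 24 h, 40 h and 72 h groups E2 was washed out for 24, 40 or 72 h, after which it was restored for 96, 80 or 48 h. In the 120 h group it was withdrawn for 120 h with no add-back. Each group held 2 libraries, and the labels do not say whether these came from separate cultures or whether the line is 1 clone. A p-value here therefore sets a difference against a spread shared over the pairs of all 5 groups, which may be technical. Replicates were least alike at 120 h. The shared spread may thus be too small for the 120 h group and too large for the groups with shorter withdrawal. Neighbouring groups differed both in the length of withdrawal and in the length of add-back, and the effects of these cannot be told apart. The add-back groups were sampled after E2 was restored, so the groups are not successive times of a single maturation. Words such as rose, fell, step, before and later compare groups ordered by length of withdrawal.

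The 10 libraries had RPKM denominators of 173610000 to 204380000 reads, as fitted to the values. With these, 1 read on a transcript of 2 kb was worth 0.00245 to 0.00288 RPKM. Replicate libraries had a Pearson r over the genes tested of 0.997 in the untreated, 24 h and 40 h groups, 0.993 in the 72 h group and 0.979 in the 120 h group. The summed RPKM of 8 progenitor markers was 1762 and 1719 in the untreated libraries and 125 and 80.1 in the 120 h libraries. Over the same groups the sum of 13 neutrophil granule markers went from 3986 and 4491 to 25580 and 24230, and that of 14 monocyte and macrophage markers from 353 and 369 to 2153 and 2086. Mpo held 2042 and 2433 of the untreated granule sums and Ctsg 1617 and 1692, and both were lower at 120 h. The median log2 fold change of all genes tested was -0.36 from untreated to 120 h and -0.32 from 72 h to 120 h, and it lay between -0.02 and 0.02 in the other comparisons. With libraries scaled by median-of-ratios these 2 medians became -0.002 and 0.02, and the split of higher to lower calls over all genes went from 3582 to 6858 to 5125 to 5016 in the first and from 3435 to 6636 to 4997 to 4352 in the second.

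The 7 genes lie on mouse chromosome 6 (GRCm38) in 2 stretches and 1 place apart from them. Clec4a2 (chr6:123106428-123143999, plus strand), Clec4n (chr6:123229843-123247021, plus), Clec4d (chr6:123262111-123275265, plus) and Clec4e (chr6:123281789-123289870, minus) follow each other over 183.4 kb, and 6.5 kb separate Clec4d from Clec4e. Clec12a (chr6:129342691-129365303, plus) and Clec7a (chr6:129461591-129472779, minus) lie 96.3 kb apart, and Clec5a (chr6:40574894-40585821, minus) lies by itself. The annotation gives Clec7a the type polymorphic pseudogene, with a coding transcript, which is the one used here. No exon of another annotated gene overlapped an exon of the 7. Of the 50-base windows of the Clec4a2 transcript, 7.5% were also found in Clec4a4 or Clec4b1, so part of its reads may be shared with these relatives. The transcripts of the other 6 had no window in common with another Clec gene.

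The sequences before the start sites are shown for 4 members that differ most in where they begin, since Clec7a and Clec4a2 were nearly silent in untreated cells and Clec4d and Clec4e were not. Each is the 250 bases upstream of the RefSeq start (GRCm38.p6), read 5′ to 3′ on the gene's strand. The windows are chr6:129472780-129473029 for Clec7a, chr6:123122440-123122689 for Clec4a2, chr6:123261857-123262106 for Clec4d and chr6:123289872-123290121 for Clec4e. Capitals mark a match, on either strand, to GAGGAA (the core read by PU.1 and its relatives), TTGCNNAA (C/EBP-like), TGANTCA (AP-1-like) or TATAAA.
Clec7a: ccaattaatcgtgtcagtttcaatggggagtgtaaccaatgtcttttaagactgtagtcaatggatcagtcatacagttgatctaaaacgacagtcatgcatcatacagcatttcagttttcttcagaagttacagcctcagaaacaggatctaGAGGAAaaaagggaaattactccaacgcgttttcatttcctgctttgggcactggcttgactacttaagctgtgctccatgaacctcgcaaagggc
Clec4a2: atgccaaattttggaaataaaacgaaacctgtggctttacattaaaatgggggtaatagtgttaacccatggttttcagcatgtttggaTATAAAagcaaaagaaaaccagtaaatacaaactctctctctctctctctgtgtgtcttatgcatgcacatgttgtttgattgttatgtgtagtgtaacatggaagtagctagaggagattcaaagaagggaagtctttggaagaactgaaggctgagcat
Clec4d: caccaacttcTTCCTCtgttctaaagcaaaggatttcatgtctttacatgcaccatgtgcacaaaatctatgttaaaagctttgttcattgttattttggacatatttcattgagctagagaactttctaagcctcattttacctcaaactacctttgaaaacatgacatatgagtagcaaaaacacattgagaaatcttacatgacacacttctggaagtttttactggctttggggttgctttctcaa
Clec4e: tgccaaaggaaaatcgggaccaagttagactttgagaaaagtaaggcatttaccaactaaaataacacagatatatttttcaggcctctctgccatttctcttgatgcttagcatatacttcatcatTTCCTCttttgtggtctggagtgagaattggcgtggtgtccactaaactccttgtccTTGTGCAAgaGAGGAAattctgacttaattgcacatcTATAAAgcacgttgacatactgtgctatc
Of the 7 genes, 6 had a RefSeq promoter, and Clec4n had no entry. The windows of Clec4a2 and Clec12a lie inside the annotated gene bodies. Their RefSeq starts are thus not the outermost starts and need not be those of the transcripts measured. GAGGAA or its reverse complement was found 1 time in Clec7a and in Clec4d, 2 times in Clec4e, Clec5a and Clec12a, and was not among the letters of the Clec4a2 window. Over 32536 promoters of the same length, 23.4% held it at least once and 3.6% at least 2 times. Clec4e also held TTGTGCAA, 66 to 59 bases before the start, and TATAAA, 29 to 24 bases before it. Clec12a held TTGCGCAA, 140 to 133 bases before its start, and TGAATCA, 213 to 207 bases before it. TTGCNNAA was found in 9.6%, TGANTCA in 6.7% and TATAAA in 12.3% of all promoters, and no 2 marked matches overlapped except the palindrome TTGCGCAA with itself. These matches describe letters and are no evidence of binding.

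**Figure D1:**
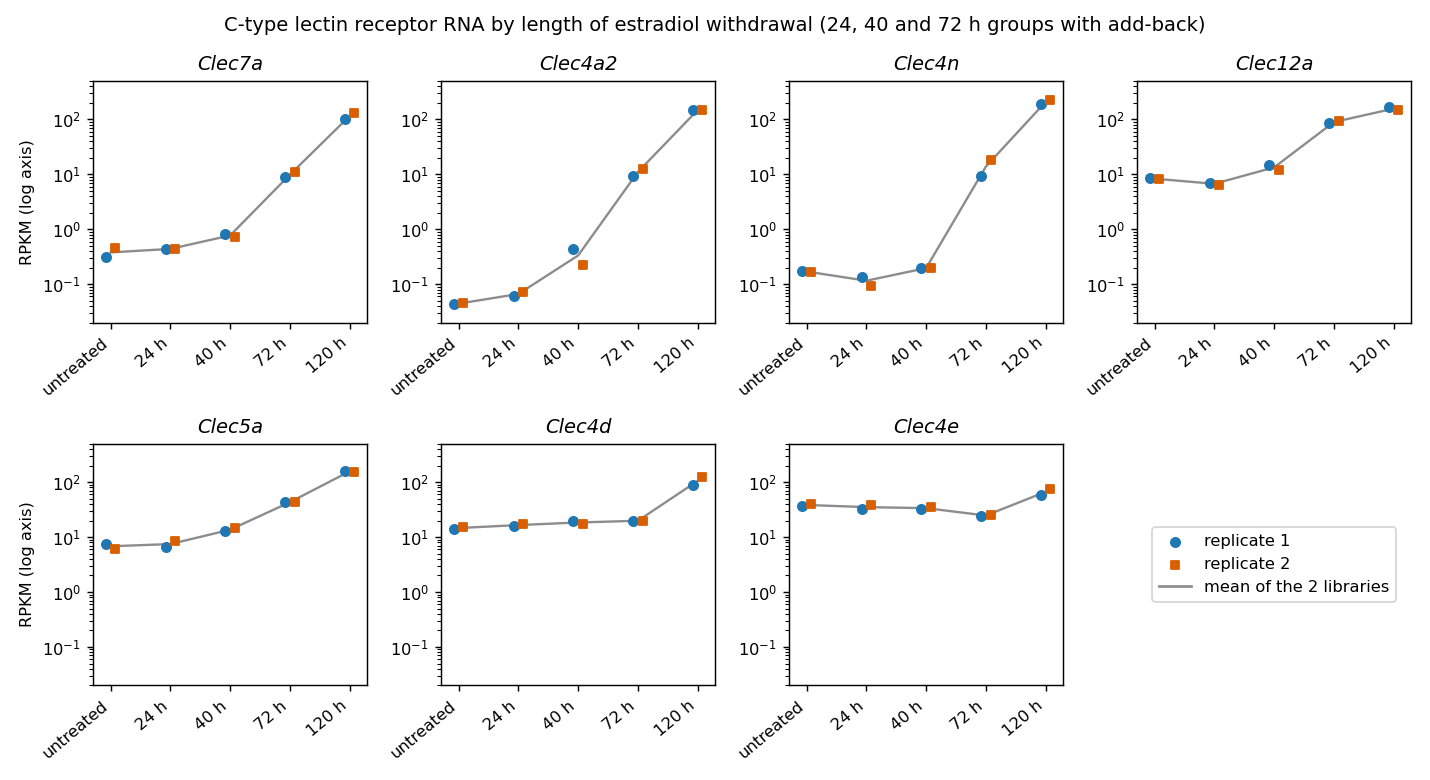
RPKM of each of the 7 genes (log axis) in the 10 libraries, by hours of E2 withdrawal, with circles and squares for the 2 libraries of a group and a line through the group means. Clec7a, Clec4a2 and Clec4n are below 1 RPKM in untreated cells and at 99.9 RPKM or more at 120 h. Clec4e is at 36.7 and 40.2 in untreated cells and at 59.3 and 74.1 at 120 h.

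The 7 receptors together differed little up to 40 h and stood at higher levels in the 72 h and 120 h groups. Their summed RPKM was 68.8 ± 1.8 (SD, n = 2) in untreated cells, 66.4 ± 6.1 in the 24 h group and 80.4 ± 0.3 in the 40 h group. It was 212.2 ± 16.0 in the 72 h group and 958.8 ± 61.1 in the 120 h group. The untreated and 24 h totals overlapped, and the totals of each group from 40 h on lay above those of all groups with a shorter withdrawal. In bulk RNA, fewer cells of a type and less RNA per cell cannot be told apart, and this holds for every level given here.

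Which receptors made up that sum also differed between the groups. Clec4e, the receptor Mincle for mycobacterial glycolipid, held 54.3 and 57.3% of the sum in the untreated libraries and 6.48 and 7.39% in the 120 h libraries. Clec4n, the mannan receptor Dectin-2, held 0.259 and 0.237% in untreated cells and 20.9 and 22.6% at 120 h. In untreated cells the order by mean RPKM was Clec4e, Clec4d, Clec12a, Clec5a, Clec7a, Clec4n and Clec4a2, and no 2 neighbours in it overlapped. In the 24 h and 40 h groups Clec5a and Clec12a changed places, and their libraries overlapped in both groups. In the 40 h group Clec4a2 also stood above Clec4n, without overlap. At 72 h the order was Clec12a, Clec5a, Clec4e, Clec4d, Clec4n, Clec4a2 and Clec7a, and the last 3 were not separated by their libraries. At 120 h it was Clec4n, Clec5a, Clec12a, Clec4a2, Clec7a, Clec4d and Clec4e. There the libraries of Clec5a overlapped those of Clec12a, those of Clec12a overlapped those of Clec4a2, and those of Clec7a overlapped those of Clec4d.

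**Figure D2:**
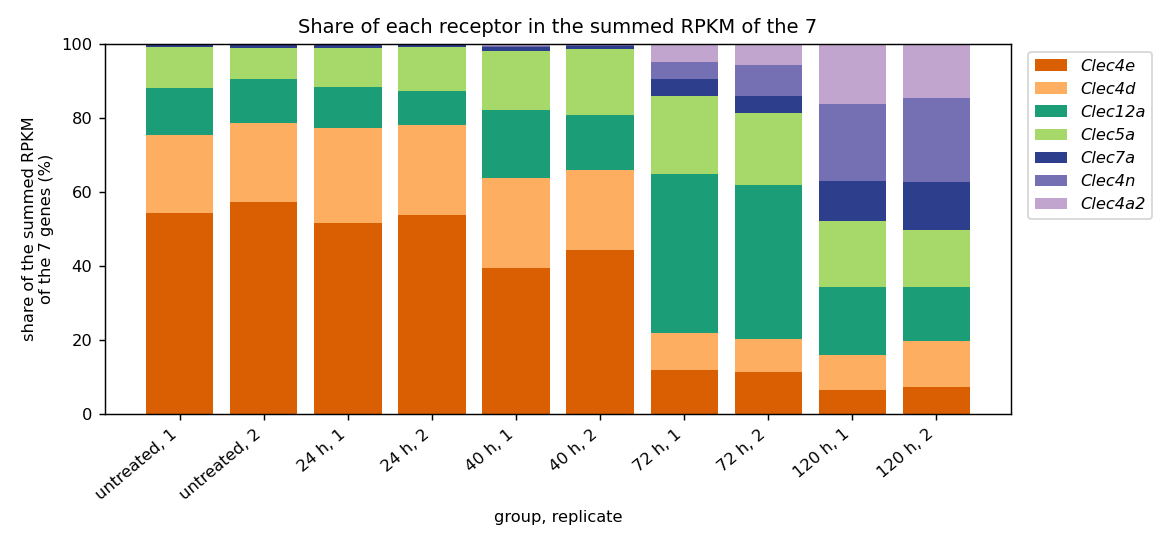
Share of each receptor in the summed RPKM of the 7 (percent, stacked to 100), 1 bar per library. Clec4e fills over 50% of the untreated and 24 h bars and 6.48 and 7.39% of the 120 h bars, and the 3 colours at the top, Clec7a, Clec4n and Clec4a2, are visible from 72 h on.

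Values were tested on the log2(RPKM + 1) scale with limma over all 13004 genes, and a gene was called at a Benjamini-Hochberg adjusted p under 0.05. That scale understates the change of genes near 0 RPKM. The 4 comparisons with untreated cells share the same 2 untreated libraries. In the 24 h group none of the 7 was called, where 0% of all genes tested were called either way, 365 genes had an unadjusted p under 0.05, and limma voom on reads recovered from the RPKM called 0. In the 40 h group 2 of the 7 were called higher, against 0.93% of all genes tested, and 0 to 3 when 1 library was left out. In the 72 h group 5 were called higher and 1 lower, against 21.6 and 22.3% of all genes. In the 120 h group 7 of 7 were called higher, against 27.5%. Since 3 of the 7 had entered the test through their late levels, these counts are a description.

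**Figure D3:**
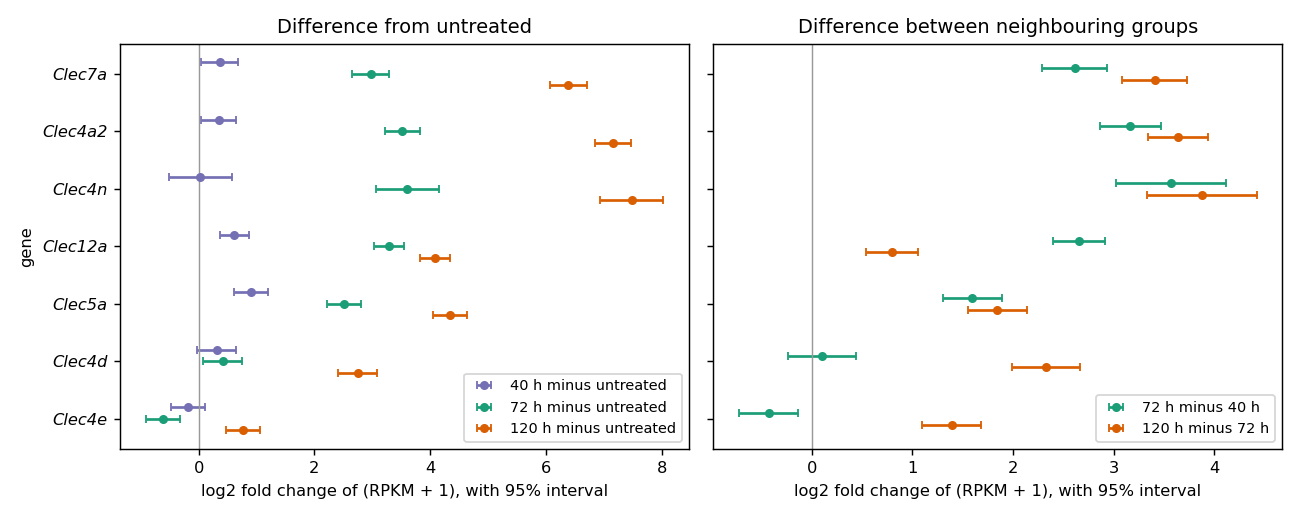
Log2 fold change of (RPKM + 1) with its 95% interval for each gene, against untreated cells (left) and between groups with neighbouring withdrawal times (right). Clec4e is the single gene to the left of 0 at 72 h, and Clec12a is the single gene whose difference from 40 h to 72 h is larger than that from 72 h to 120 h with intervals that do not overlap.

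Clec7a encodes Dectin-1, the phagocyte receptor for fungal beta-glucan, which carries its own activation motif in its tail. Its RPKM was 0.311 and 0.449 in the untreated libraries, 0.440 and 0.441 in the 24 h group, and 0.813 and 0.732 in the 40 h group. It was 8.90 and 10.9 in the 72 h group and 99.9 and 130 in the 120 h group. The untreated and 24 h libraries overlapped, and each later group lay above all groups before it. The untreated values rested on 45 and 56 reads and the 120 h values on 12260 and 18691. The log2 fold change against untreated cells was 0.36 (SE 0.14, adjusted p = 0.212) at 40 h, 2.98 (SE 0.14, adjusted p = 1.77e-06) at 72 h and 6.38 (SE 0.14, adjusted p = 1.16e-08) at 120 h, each from limma. The ratio of mean RPKM at 120 h to that in untreated cells was 303.

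Clec4n, Clec4d and Clec4e encode the activating receptors of the first stretch, Dectin-2, MCL and Mincle, which signal through the adaptor encoded by Fcer1g. Clec4n read 0.175 and 0.166 RPKM in untreated cells, 0.138 and 0.094 in the 24 h group and 0.195 and 0.199 in the 40 h group. These 6 values came from 21 to 45 reads each. At 72 h its libraries differed, with 9.53 and 18.3 RPKM, and at 120 h it read 191 and 227. The 72 h and 120 h libraries lay far above the earlier ones, and the 2 libraries of the 72 h group lay farther apart, in proportion, than those of the 120 h group. Clec4n did not pass the test at 40 h (log2 fold change 0.03, SE 0.24, limma adjusted p = 0.981) and rose by 72 h (3.61, SE 0.24, adjusted p = 1.09e-05) and by 120 h (7.48, SE 0.24, adjusted p = 5.31e-08). Its mean RPKM at 120 h, 209.1 ± 25.2 (SD, n = 2), was 1230 times that of untreated cells and the highest of the 7.

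Clec4d, the partner of Mincle that forms complexes with it at the cell surface, was already expressed. It read 14.3 and 14.9 RPKM in untreated cells, 15.9 and 17.2 in the 24 h group and 19.6 and 17.3 in the 40 h group. It read 19.9 and 19.7 in the 72 h group and 87.3 and 123 in the 120 h group. The libraries of all other groups lay above the untreated ones, but no difference passed the test before 120 h. At 40 h the log2 fold change was 0.31 (SE 0.15, limma adjusted p = 0.312), with an adjusted p of 0.0264 and 0.0261 when either 120 h library was left out. At 72 h the log2 fold change was 0.42 (SE 0.15), with a limma adjusted p of 0.0509, and it fell on the called side, with adjusted p from 0.00144 to 0.0461, under 6 of the 19 alternatives, among them those without either 120 h library. At 120 h Clec4d rose by a log2 fold change of 2.75 (SE 0.15, limma adjusted p = 8.65e-07). From 40 h to 72 h it moved by 0.10 (95% interval -0.24 to 0.44), and from 72 h to 120 h by 2.33 (SE 0.15, limma adjusted p = 3.31e-06).

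Clec4e, 6.5 kb from Clec4d and on the opposite strand, was lower at 72 h than in untreated cells. It read 36.7 and 40.2 RPKM in untreated cells, 32.1 and 38.1 in the 24 h group, 31.8 and 35.5 in the 40 h group and 24.0 and 25.4 in the 72 h group. Both 72 h libraries lay below every library of the groups before. At 120 h it read 59.3 and 74.1, above every other library. It fell by 0.62 on the log2 scale from untreated cells to 72 h (SE 0.13, limma adjusted p = 0.00544), and under the 19 alternatives the adjusted p ranged from 0.000627 to 0.0466. From 72 h to 120 h it rose by 1.39 (SE 0.13, limma adjusted p = 2.26e-05), and from untreated cells to 120 h by 0.77 (SE 0.13, adjusted p = 0.000562). Relative to the median of all genes that last difference was 1.13, and with median-of-ratios scaling it was 1.21. The RPKM ratio of Clec4e to Clec4d was 2.56 and 2.69 in the untreated libraries, 2.03 and 2.21 at 24 h, and 1.62 and 2.05 at 40 h. It was 1.20 and 1.29 at 72 h and 0.680 and 0.601 at 120 h, so that in the 120 h libraries alone the partner exceeded Mincle. This ratio is given as a description and was not tested.

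Clec5a encodes MDL-1, an activating receptor that pairs with the adaptors encoded by Tyrobp and Hcst. It read 7.57 and 6.04 RPKM in untreated cells, 6.57 and 8.36 in the 24 h group and 12.9 and 14.4 in the 40 h group. It read 42.8 and 43.4 in the 72 h group and 162 and 153 in the 120 h group. The untreated and 24 h libraries overlapped, and the groups from 40 h on stood above one another without overlap. Clec5a was 1 of the 2 receptors called at 40 h (log2 fold change 0.91, SE 0.13, limma adjusted p = 0.00886). That call was lost when any 1 of the 2 untreated or the 2 40 h libraries was left out, with adjusted p from 0.0502 to 0.0849. Clec5a was higher still in the 72 h group (2.51 against untreated, SE 0.13, limma adjusted p = 2.71e-06) and in the 120 h group (4.35, SE 0.13, adjusted p = 3.63e-08).

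Clec12a and Clec4a2 are the 2 inhibitory receptors. Clec12a encodes MICL, which recognises uric acid crystals and restrains the activation of neutrophils and other myeloid cells. It read 8.42 and 8.24 RPKM in untreated cells, 6.94 and 6.54 in the 24 h group and 14.9 and 11.9 in the 40 h group. It read 86.2 and 93.3 in the 72 h group and 167 and 147 in the 120 h group. The 24 h libraries were the lowest, and the groups from 40 h on did not overlap. At 24 h the log2 fold change of -0.27 (SE 0.11) had an unadjusted p of 0.0424 and a limma adjusted p of 1. At 40 h Clec12a was called higher than untreated (0.62, SE 0.11, limma adjusted p = 0.0229) and was the single member called higher than the 24 h group (0.89, SE 0.11, adjusted p = 0.0333), where 0.169% of all genes tested were called higher. The call against untreated cells was lost without either untreated library, either 24 h library or 40 h replicate 1, with adjusted p from 0.0556 to 0.184. The call against the 24 h group was lost without any 1 of these 5 or of the 2 72 h libraries, with adjusted p from 0.064 to 0.365.

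Clec12a also had the largest part of its difference between untreated and 120 h cells at 72 h. That part was 54.7% of the difference in mean RPKM, against 24.1% for Clec5a, 5.74% for Clec4d, and 6.57 to 8.28% for Clec4n, Clec4a2 and Clec7a, and it was -48.6% for Clec4e, which was below its untreated level. As a level, the mean of Clec12a at 72 h was 57.1% of that at 120 h. From untreated cells to 72 h it rose by a log2 fold change of 3.28 (SE 0.11, limma adjusted p = 4.37e-07). From 72 h to 120 h it rose by 0.80 (SE 0.11, limma adjusted p = 0.000243), or 1.12 relative to the median of all genes and 1.24 with median-of-ratios scaling. The 95% interval of the first step from 40 h to 72 h, 2.40 to 2.92, lay above that of the second, 0.54 to 1.06.

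Clec4a2 encodes DCIR, an inhibitory receptor of dendritic cells and other myeloid cells. It read 0.043 and 0.046 RPKM in untreated cells, 0.062 and 0.071 in the 24 h group and 0.445 and 0.224 in the 40 h group. It read 9.49 and 12.6 in the 72 h group and 149 and 147 in the 120 h group. Each group lay above the one before with no overlap, and the levels up to 40 h came from 20 to 194 reads. At 40 h the mean RPKM was 7.52 times that of untreated cells, but on the log2(RPKM + 1) scale the difference was 0.35 (SE 0.13, limma adjusted p = 0.203). With a pseudocount of 0.1 it was 1.54 (limma adjusted p = 0.0188), and with limma voom on recovered reads it was 2.80 (adjusted p = 0.0384). At 72 h the log2 fold change was 3.52 (SE 0.13, limma adjusted p = 6.05e-07) and at 120 h it was 7.16 (SE 0.13, adjusted p = 8.48e-09), a ratio of mean RPKM of 3330.

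The 2 steps after 40 h were compared in their own right. Clec4a2, Clec4n and Clec7a had passed the filter only through the 72 h and 120 h groups, so the counts of receptors are a description here too. From 40 h to 72 h, 5 of the 7 rose, where 13.9% of all genes were called higher, and 1 fell, where 13.8% were called lower. The 5 were Clec4n (3.57), Clec4a2 (3.17), Clec12a (2.66), Clec7a (2.61) and Clec5a (1.60), all on the log2 scale with limma adjusted p from 2.71e-06 to 6.24e-05. The member that fell was Clec4e, by 0.43 (SE 0.13, limma adjusted p = 0.0389), and without any 1 of the untreated, 40 h or 72 h libraries its adjusted p was 0.0634 to 0.194. With no filter, with quantile normalization or with the transcript of highest mean it was 0.0575 to 0.087. From 72 h to 120 h all 7 rose, where 26.4% of all genes were called higher. The log2 fold changes ran from 0.80 for Clec12a to 3.88 for Clec4n, with limma adjusted p from 3.56e-07 to 0.000243.

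Genes with the most similar pattern to each member over the 10 libraries were ranked by Pearson's r on the log2 scale among 10298 coding genes, as a description only, since the libraries fall into 5 groups. For Clec4a2 and Clec7a they included Ccr1, a chemokine receptor, with r of 0.999 to both, which went from 0.0825 RPKM in untreated cells to 110 at 120 h. For Clec4n they were Retnlg (r = 0.999), Dpep2 (r = 0.999) and Lyz1 (r = 0.999), and Retnlg went from 0.145 to 929.5 RPKM. For Clec5a they were Dgat2 (r = 0.998), Lcp2 (r = 0.996) and Smad2 (r = 0.996). For Clec12a they were Acpp (r = 0.996), Slain2 (r = 0.995) and Mgam (r = 0.995), and Acpp went from 2.09 RPKM in untreated cells to 34.6 at 72 h and 59.3 at 120 h. For Clec4d they were Zfp119b, Tnfsf13b and Arrb2, and Arrb2 went from 14.5 RPKM to 22.5 at 72 h and 115 at 120 h. For Clec4e they were Midn, Cyren and Tapbpl, and Midn went from 15.2 RPKM to 10.8 at 72 h and 21.6 at 120 h. Between members, r was 0.999 for Clec4a2 with Clec7a, 0.818 for Clec4d with Clec4e, and 0.306 for Clec12a with Clec4e.

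The genes lying around the members did not all follow them. Among the neighbours of the stretch from Clec4a2 to Clec4e, the lectin Clec4b2 lies inside it, and Clec4b1 and Clec4a4 lie outside, 34.9 and 82.3 kb before Clec4a2. All 3 were at 0.007 RPKM or below in the untreated libraries. At 120 h Clec4a4 read 1.89 and 2.95, Clec4b1 read 4.58 and 5.83, and Clec4b2 read 13.4 and 9.36. These are below each of the 4 members there, and Clec4a4 and Clec4b1 share sequence with Clec4a2. All 3 were called higher at 120 h with log2 fold changes of 1.75, 2.63 and 3.61 (limma adjusted p from 1.05e-06 to 6.37e-06). Clec4a4 and Clec4b1 passed the filter only through their 120 h libraries, and Clec4b2 through these and 72 h replicate 2. A rise was therefore partly built in, and these calls are a description. The next coding gene beyond Clec4e, the vomeronasal receptor gene Vmn2r25 at a distance of 531.8 kb, read at most 0.004 in any library.

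On the outer side of Clec12a, at a distance of 67.3 kb, the activation antigen gene Cd69 went the other way, from 76.0 and 61.5 RPKM in untreated cells to 8.73 and 7.24 at 120 h. It fell by 2.95 on the log2 scale (SE 0.15, limma adjusted p = 5.8e-07). Between Clec12a and Clec7a, the means of Clec12b, Clec1b, Clec9a and Clec1a at 120 h were 0.106, 0.771, 0.143 and 0.149 RPKM. Next to Clec7a, Olr1, the receptor for oxidised low-density lipoprotein, read 4.29 and 5.40 in untreated cells, 45.3 and 49.5 at 72 h and 26.3 and 21.5 at 120 h. Olr1 therefore peaked in the 72 h group, and the fall from 72 h to 120 h was 0.97 on the log2 scale (SE 0.13, limma adjusted p = 0.000195), where Clec7a rose by 3.41 (SE 0.14, adjusted p = 5.37e-07).

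**Figure D4:**
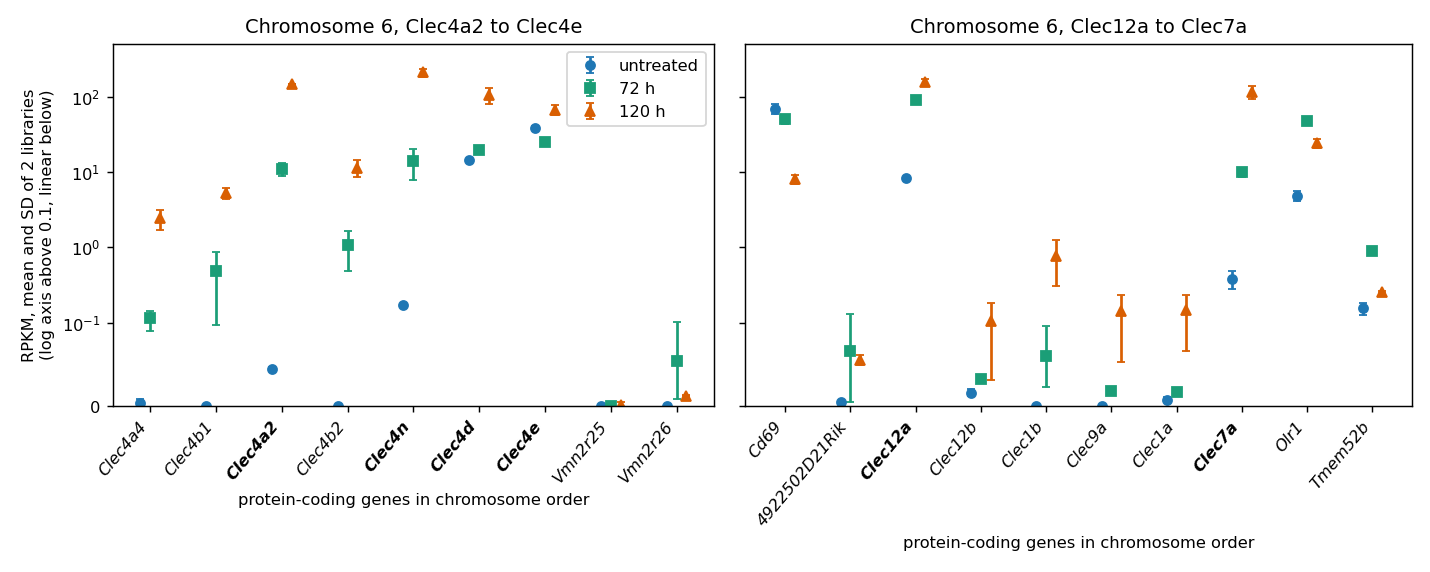
Mean RPKM and SD of the 2 libraries for the coding genes of the 2 stretches in chromosome order (log axis above 0.1), members in bold, in untreated, 72 h and 120 h cells. Clec12a and Clec7a stand at 157 and 115 RPKM at 120 h, while the 4 lectin genes between them stay below 1 RPKM, and Cd69 is lowest and Olr1 intermediate at 120 h.

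The adaptors and kinases that carry the receptors' signal were read from a list of 16 genes, 15 of them tested. At 40 h 1 was called higher and 1 lower, where 0.93% of all genes were called higher and 3.35% lower. At 72 h 3 were higher and 5 lower, where 21.6 and 22.3% of all genes were called, with a median log2 fold change of -0.07 against 0.02 over all genes. At 120 h 11 were higher and 3 lower, where 27.5% of all genes were called higher and 52.7% lower. The median was 0.93 against -0.36 over all genes. With median-of-ratios scaling 12 were higher and 1 lower, where 5125 of the 13004 genes tested were called higher and 5016 lower. Fcer1g, the adaptor of Dectin-2, MCL and Mincle, read 349 and 383 RPKM in untreated cells, 152 and 139 at 72 h and 622 and 632 at 120 h. Like Clec4e, it was lowest at 72 h, where it fell by 1.32 on the log2 scale (SE 0.11, limma adjusted p = 3.12e-05), and it rose by 2.10 from 72 h to 120 h (SE 0.11, adjusted p = 1.24e-06). Tyrobp, an adaptor of MDL-1, read 255 and 270 RPKM in untreated cells, 218 and 214 at 72 h and 1251 and 1309 at 120 h. It fell by 0.28 by 72 h (SE 0.10, limma adjusted p = 0.0447) and rose by 2.28 by 120 h (SE 0.10, adjusted p = 2.41e-07).

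Syk, the kinase itself, read 22.2 and 22.7 RPKM in untreated cells, 24.3 and 25.7 at 72 h and 58.9 and 82.1 at 120 h, and it rose by 120 h (log2 fold change 1.59, SE 0.14, limma adjusted p = 1.43e-05). Lcp2, the scaffold SLP-76 below Syk and one of the genes most like Clec5a, had 1.22 and 1.45 RPKM in untreated cells, 3.84 and 4.06 at 40 h, 15.5 and 19.4 at 72 h and 71.4 and 67.7 at 120 h. It rose at 40 h (1.09, SE 0.11, limma adjusted p = 0.00317), at 72 h (2.98, SE 0.11, adjusted p = 5.8e-07) and at 120 h (4.92, SE 0.11, adjusted p = 1.2e-08). Lyn, a Src family kinase, rose by 2.33 by 120 h (limma adjusted p = 5.04e-08). Plcg1, a phospholipase of the pathway, fell by 2.15 (limma adjusted p = 3.33e-07). The other listed phospholipase, Plcg2, read 139 and 141 RPKM in untreated cells, 71.0 and 66.3 at 72 h and 100 and 100 at 120 h. Its log2 fold change at 120 h was -0.48 (limma adjusted p = 0.00048), and -0.04 with median-of-ratios scaling (adjusted p = 0.673). Btk was called lower at 120 h, with a log2 fold change of -0.41, but turned to the other side of 0 under median-of-ratios scaling.

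The Card9 complex and the NF-kB subunits formed a list of 18 genes, 17 of them tested. None was called at 40 h, where 4.28% of all genes were called either way. At 72 h 4 were higher and 1 lower (median 0.16), where 21.6 and 22.3% of all genes were called, so the share higher was near that of all genes. At 120 h 13 were higher and 2 lower (median 0.76 against -0.36 over all genes), where 27.5 and 52.7% of all genes were called. With median-of-ratios scaling 15 were higher and 0 lower, where 5125 of the 13004 genes tested were called higher and 5016 lower. Card9 read 24.6 and 23.4 RPKM in untreated cells, 29.1 and 40.3 at 72 h and 32.9 and 57.6 at 120 h. It passed the test at 120 h (log2 fold change 0.84, SE 0.24, limma adjusted p = 0.0112) and not at 72 h (0.50, SE 0.24, adjusted p = 0.128), and its 2 libraries lay apart in both groups. Malt1 rose by 1.42 (SE 0.14, limma adjusted p = 2.41e-05), and the subunit genes Relb and Rel by 2.31 and 2.18 (limma adjusted p = 1.85e-06 and 1.42e-05). Nfatc3, called lower at 120 h, changed sign under median-of-ratios scaling.

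On the inhibitory side, 5 of 6 listed genes were tested, and 3 were higher and 2 lower at 72 h, where 21.6 and 22.3% of all genes were called. At 120 h 3 were higher and none lower, where 27.5 and 52.7% of all genes were called. With median-of-ratios scaling 5 were higher, where 5125 of the 13004 genes tested were called higher. Ptpn6, the phosphatase SHP-1 that binds the tails of inhibitory receptors such as MICL, read 113 and 122 RPKM in untreated cells, 90.2 and 92.8 at 72 h and 271 and 324 at 120 h. It fell by 0.36 by 72 h (SE 0.10, limma adjusted p = 0.0241) and rose by 1.33 by 120 h (SE 0.10, adjusted p = 6.47e-06). Ptpn11, the related phosphatase SHP-2, did not pass the test at 120 h (0.01, SE 0.08, limma adjusted p = 0.901) but was called higher with median-of-ratios scaling (0.44, adjusted p = 0.000709). Cbl, a ubiquitin ligase that limits such signalling, read 6.33 and 6.49 in untreated cells, 16.2 and 16.8 at 72 h and 31.6 and 44.1 at 120 h. It rose by 2.37 (SE 0.20, limma adjusted p = 1e-05) by 120 h.

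**Figure D5:**
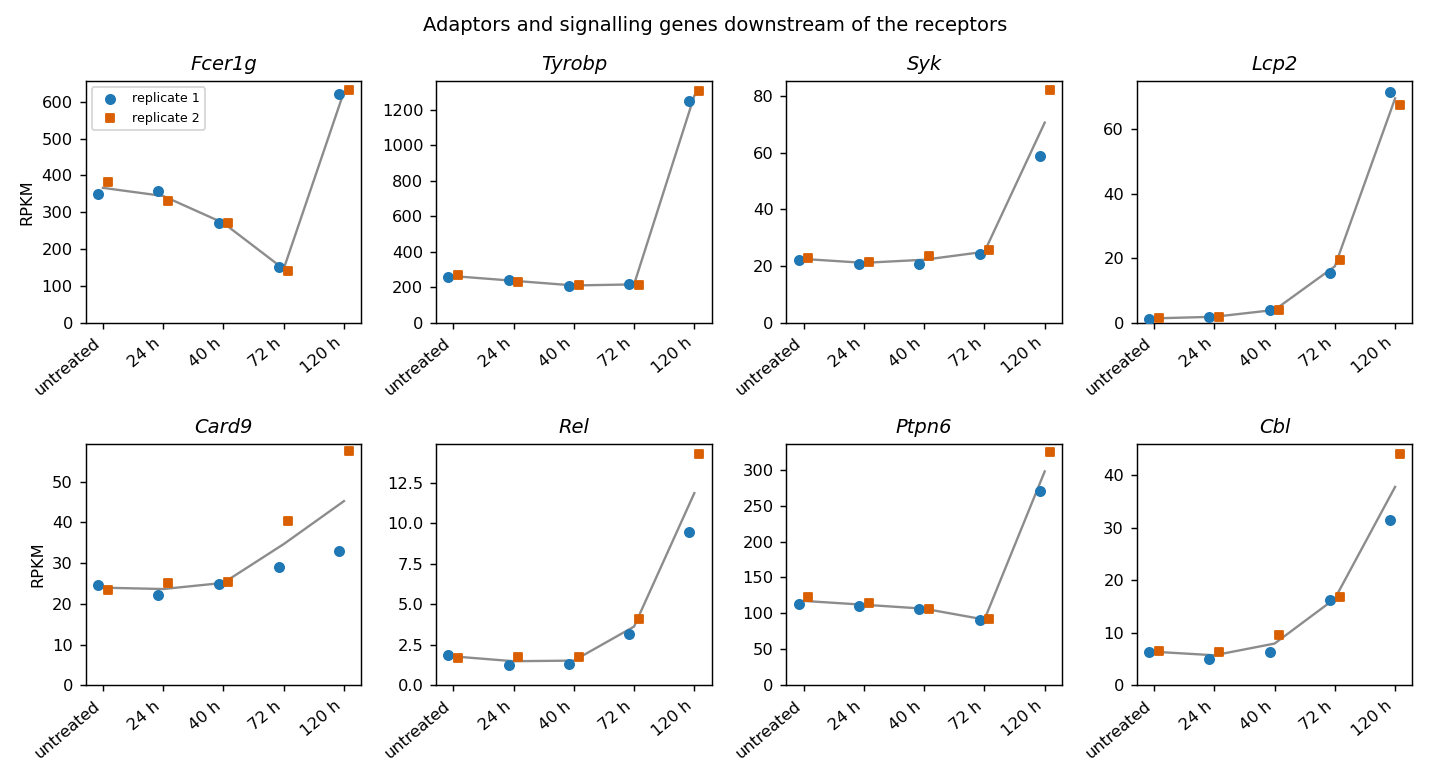
RPKM (linear axes from 0) of 8 adaptor and signalling genes in the 10 libraries, with circles and squares for the 2 libraries and a line through the means. Fcer1g is at 152 and 139 RPKM in the 72 h group and at 622 and 632 in the 120 h group, and Lcp2 is higher in each group from 40 h on.

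Genes that these receptors are known to induce were counted from a list of 22, of which 21 were listed in the files and 16 tested. At 40 h 1 was lower and none higher, where 3.35% of all genes were called lower and 0.93% higher. At 72 h 8 were higher and 1 lower (median log2 fold change 0.62), where 21.6 and 22.3% of all genes were called. At 120 h 15 were higher and 1 lower (median 3.13 against -0.36 over all genes), where 27.5 and 52.7% were called. From 72 h to 120 h 16 of 16 were higher, where 26.4% of all genes were called higher and 51% lower. Il1b, the inflammasome-processed cytokine, read 0.198 and 0.205 RPKM in untreated cells, 0.794 and 2.69 at 72 h and 63.7 and 141 at 120 h. It did not pass the test at 72 h (1.10, SE 0.39, limma adjusted p = 0.0517) and rose by 120 h (6.32, SE 0.39, adjusted p = 1.92e-06). The chemokine gene Ccl2, the transcription factor gene Egr2 and the inflammasome gene Nlrp3 rose by 5.92, 4.11 and 4.22 by 120 h (limma adjusted p from 1.4e-07 to 1.38e-06). Il6 fell, from 5.12 and 5.61 RPKM in untreated cells to 1.17 and 1.51 at 120 h (-1.45, SE 0.20, limma adjusted p = 0.000185). Some tested genes of this list, Il1b and Egr2 among them, passed the filter only with their 120 h libraries. A rise was therefore partly built in, and the counts of this list are a description.

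Of 79 further genes with C-type lectin-like domains, 71 were listed and 23 tested. At 72 h 12 were higher and 7 lower (median 0.42), where 21.6 and 22.3% of all genes were called. At 120 h 16 were higher and 5 lower (median 1.75), where 27.5 and 52.7% were called. Some of the 23, such as Clec4a4 and Clec4b1, passed the filter only through their 120 h libraries. Of the 71, 48 were below 1 RPKM in both 120 h libraries. These counts and medians are therefore a description. Clec4a1 and Clec4a3, relatives of Clec4a2, read 55.1 and 90.7 RPKM and 85.8 and 134 RPKM at 120 h, from at most 0.025 and 0.836 in untreated cells. Prg2, the eosinophil major basic protein, peaked at 72 h with 1484 and 1306 RPKM, from 12.9 and 36.3 in untreated cells. Cd72, an inhibitory receptor of B cells, read 56.0 and 54.8 RPKM in untreated cells, 1.39 and 1.40 at 72 h and 1.88 and 2.54 at 120 h, and it fell by 4.14 by 120 h (SE 0.11, limma adjusted p = 2.5e-08).

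Markers of more than 1 myeloid cell type were higher at 120 h, though not all markers of a list. At 120 h 12 of 13 tested monocyte and macrophage markers were called higher and 1 lower, 10 of 13 neutrophil granule markers were higher and 2 lower, and 8 of 8 progenitor markers were lower, where 27.5% of all genes were called higher and 52.7% lower. Some markers passed the filter only through 120 h, so these counts are a description. The granule markers Mpo and Ctsg read 463 and 178 and 231 and 95.6 RPKM at 120 h, below their untreated levels. From 72 h to 120 h, 9 granule markers were higher and 4 lower, where 26.4 and 51% of all genes were called, while all 7 receptors rose. The summed RPKM of 10 mast cell, basophil and eosinophil markers was 210 and 239 in untreated cells, 1550 and 1375 at 72 h and 616 and 401 at 120 h. Prg2 alone held 1484 and 1306 of the 72 h sums, and the other 9 markers summed to 197 and 202 in untreated cells, 66.3 and 69.4 at 72 h and 145 and 150 at 120 h. That of 10 dendritic cell markers was 262 and 254 in untreated cells, 36.9 and 51.6 at 72 h and 270 and 436 at 120 h, with 6 of the 10 below 1 RPKM in both 120 h libraries. Flt3, which is also a progenitor marker, held 257 and 250 of the untreated sums, and Cd74 held 234 and 381 of the 120 h sums. Without Flt3 the sum was 4.54 and 3.56 in untreated cells, 9.64 and 22.1 at 72 h and 269 and 433 at 120 h. The part of any of these cell types in the receptor levels was not tested.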

How the data were processed

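RNA of 10 libraries was sequenced after TruSeq preparation, per the labels' protocols. Per the submitters' processing notes, the authors used STAR and the build GRCm38. They deposited RPKM per Ensembl transcript, per the file headers. How reads were counted, with which annotation and whether by strand, is not given in the sources used here. Of 79535 transcripts, 77720 (97.7%) matched GENCODE M21, and 1 coding, principal transcript stood for each gene. IDs were matched without their version, which was the same for 38278 of the 77720. Reads recovered for a transcript of another version rest on its M21 length. RPKM times length gave whole reads, within 0.1 reads, in 100% of 4360 to 5273 values tested per library, all of transcripts with the same version. The denominator of each library was chosen to bring these same values closest to whole reads, so the agreement is partly built in. The depth is therefore an estimate, and whether it counts reads or pairs is not given. Levels of under 1 RPKM rest on the few reads stated. Groups came from the titles.

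Values were tested as log2(RPKM + 1) in R 4.3.3 by limma 3.58.1 (a linear model with group as its only term and trended empirical Bayes variances; 5 residual and 3.04 prior degrees of freedom), 2-sided, with Benjamini-Hochberg adjustment over 13004 genes in each of 7 comparisons. The fit was tested on simulated data with known changes. Alternatives were a pseudocount of 0.1, no filter, 2 other scalings, the 2 groups alone, array weights, a replicate block, another transcript, limma voom on recovered reads, and leaving out each library.

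The members and the gene lists were chosen with earlier results of these data known. From each list and comparison, as many as 6 called genes of largest change and 2 uncalled genes of highest level could be named, beside the genes between and next to the members and the 3 genes most like each member. Syk, Card9, Btk, Nfatc3 and the 120 h change of Plcg2 fall outside that rule and were chosen after their values were seen. Some listed genes are counted but not reported here by name. Promoters are those of RefSeq on GRCm38.p6.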

Additional observations from a re-analysis of the deposited data

How the results depend on the processing

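Over the 19 alternatives the count of the 7 receptors called stayed at 0 for 24 h against untreated, at 7 for 120 h against untreated and at 7 for 120 h against 72 h. For 72 h against untreated it was 6 or 7, and for 72 h against 40 h it was 5 or 6. The 40 h comparisons moved. Against untreated cells the count was 2, from 0 to 3 with 1 library left out, 1 with no filter on low values and 5 with array weights. Against the 24 h group it was 1, from 0 to 2 with 1 library left out, 0 with no filter, 2 in a fit of the 2 groups alone and 2 with array weights. The lost calls were of Clec5a and Clec12a at 40 h and of Clec4e from 40 h to 72 h, as given above, and with no filter the limma adjusted p of Clec12a was 0.0536 against untreated cells and 0.067 against 24 h. The gained calls were of Clec4d at 40 h and 72 h, Clec4a2 and Clec7a at 40 h, and Clec5a from 24 h to 40 h. Of 922 single results for a receptor, 871 kept direction and call, 27 lost the call, 18 gained it and 6 changed sign.

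The 6 that changed sign were all uncalled and close to 0. Clec5a at 24 h was 0.12 and became -0.026 without untreated replicate 2 and -0.036 without 24 h replicate 2, with a range of -0.036 to 0.269 over libraries left out. Clec7a at 24 h was 0.06 and became -0.008 without untreated replicate 1, with a range of -0.008 to 0.136. Clec4n at 40 h was 0.03 and became -0.002 with quantile normalization. Clec4e from 24 h to 40 h was -0.06 and became 0.062 without 24 h replicate 2 and 0.02 without 40 h replicate 1, with a range of -0.177 to 0.062. The cause of these changes was not tested.

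The labels tie no replicate number to a shared culture or day. The correlation of same-numbered deviations was over 0.1 in 8 of 10 pairs of groups, from 0.03 between untreated and 72 h to 0.64 between 72 h and 120 h, and since it was not over 0.1 in every pair the numbers were not taken as pairs. With the replicate number as a block, 7 receptors were called at 72 h in place of 6, and 164 genes were higher and 529 lower at 40 h. Limma voom on the recovered reads called 148 genes higher and 379 lower at 40 h, and 3730 higher and 6641 lower at 120 h, against untreated cells. Array weights gave the 120 h libraries 0.186 and the untreated ones 2.59, and called 1051 genes higher and 1808 lower at 40 h, against 121 and 436. A fit of the 2 groups alone called 881 higher and 1453 lower of 12119 genes at 40 h. At 120 h such a fit called 3144 higher and 6186 lower of 12693 genes, against 3582 and 6858. Below 1 RPKM, the added 1 limits what the fold change can show.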
